A study of Mus musculus with 22 samples.

Results

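Pseudogene transcripts were measured in pancreatic islets of male mice that were wild type or carried 1 copy of the S64F allele of MAFA, a transcription factor of mature beta cells. Rows were taken when their symbol ended in -ps, with or without a number, and when they reached 1 TPM (transcripts per 1000000, a read share corrected for transcript length) in at least 5 of the 22 mice. Of 57010 rows in the table, 1682 had such a symbol. Of these, 943 were at 0 in every mouse, 609 were above 0 but under the level asked for, and 130 were kept, under 129 symbols because Ppp4r1l-ps had 2 rows. The level that selected these 130 came from the same mice, so their presence here is a description and not a finding. Of the 130, 81 reached 1 TPM in at least 5 mice of each background, 32 did so only among Mixed mice, 4 only among C57 mice, and 13 only over both backgrounds together. The last to be kept had 1 TPM in exactly 5 mice, as in Btnl7-ps (mean over all mice 0.747 TPM), Chchd2-ps (0.705 TPM) and Cox5b-ps (0.805 TPM). The first to be left out had it in exactly 4, as in H3f3a-ps2 (mean 0.771 TPM), Itpa-ps1 (0.759 TPM) and Rab11b-ps2 (0.878 TPM).

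The mice formed 4 groups: C57 wild type (C57 WT, n = 5), C57 heterozygous for S64F (C57 Het, n = 6), Mixed wild type (Mixed WT, n = 5) and Mixed heterozygous for S64F (Mixed Het, n = 6). Every mouse was male and 5.5 weeks old per the series design, where the column headers give 5 to 6 weeks, and each library came from the islets of a different mouse, and the Mixed label does not name the strains behind it. Mice are numbered here within their group in the order of their records. The comparisons ask how pseudogene levels differed between backgrounds and between genotypes, and whether the genotype difference depended on the background.

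Processed pseudogenes are copies of a messenger RNA that was reverse transcribed and inserted back into the genome, so they lack the introns of the parent gene and usually sit on another chromosome. Genes with abundant germline messages, such as those of ribosomal proteins, have left many such copies. Because a recent copy is nearly identical to its parent, a short read often fits both, and the copies that a genome holds can differ between mouse strains.

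The symbol did not always mean a processed pseudogene. In GENCODE M21, 100 of the 130 were annotated as processed or transcribed processed pseudogenes and 14 as unprocessed or unitary ones. Another 8 were annotated as protein coding (among them Rps18-ps6, Csnk2a1-ps3 and Ftl1-ps1), 3 were not in that annotation, and Tmem250-ps, Selenok-ps1, Capza1-ps1, Rnu7-ps1 and Snord3b-ps2 carried other types. The 130 are therefore called named pseudogenes below. A row for the parent gene, the symbol before the hyphen, was found for 105 of them, which pointed to 85 parents. Parents were cytosolic ribosomal protein genes for 49 of the 130. The transcript of 102 named pseudogenes could be aligned to the named parent, with a median identity of 99.25% (87.0% to 100%), and in 76 the identity was at least 98%. For members without a matched parent, the coding transcript with the best alignment was used, and the gene found either way is called the source gene. How reads that fit both a pseudogene and its source gene were assigned is not given in the sources used here, so the level of each such pair is uncertain as to which copy the reads came from.

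Stretches of 90 bases show how little separates the pairs on which the results turn. Each pseudogene is set above its source gene in the sense of the transcript, with the bases that differ in capitals. Sequences are GENCODE M21 transcripts, that is, from the reference strain, and the copies in the Mixed mice were not sequenced here. The first pair is Rps18-ps6 on chromosome 13 and Rps18 on chromosome 17, which differed at 5 of 545 aligned bases, 2 of them in this stretch of the coding sequence (bases 282 to 371 of it).

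Rps18-ps6: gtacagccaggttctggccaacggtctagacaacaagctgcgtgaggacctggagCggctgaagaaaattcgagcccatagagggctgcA
Rps18: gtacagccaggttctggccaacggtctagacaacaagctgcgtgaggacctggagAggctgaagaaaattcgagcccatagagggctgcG

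Atp6v0c-ps2 on chromosome 6 differed from Atp6v0c on chromosome 17 at 1 of 465 bases.

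Atp6v0c-ps2: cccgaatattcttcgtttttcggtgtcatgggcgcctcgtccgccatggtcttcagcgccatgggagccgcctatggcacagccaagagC
Atp6v0c: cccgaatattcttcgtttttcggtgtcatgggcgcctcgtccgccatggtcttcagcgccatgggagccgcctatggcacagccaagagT

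Rpl34-ps1 on chromosome 6 differed from Rpl34 on chromosome 3 at 2 of 354 bases.

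Rpl34-ps1: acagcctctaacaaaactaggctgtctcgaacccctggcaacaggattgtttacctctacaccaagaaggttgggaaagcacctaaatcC
Rpl34: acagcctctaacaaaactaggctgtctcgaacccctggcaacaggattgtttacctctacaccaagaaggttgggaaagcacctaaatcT

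Hmgb1-ps7 on chromosome 7 differed from Hmgb1 on chromosome 5 at 9 of 648 bases, 3 of them within this stretch.

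Hmgb1-ps7: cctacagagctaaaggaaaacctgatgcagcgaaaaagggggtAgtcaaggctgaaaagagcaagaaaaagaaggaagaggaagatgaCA
Hmgb1: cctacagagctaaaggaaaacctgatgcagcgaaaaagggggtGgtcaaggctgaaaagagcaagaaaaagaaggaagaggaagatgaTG

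Ftl2-ps on chromosome 4 had Ftl1 on chromosome 7 as its best coding match and differed at 7 of 552 bases.

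Mafa and markers of the labelled tissue were looked at first, although TPM values do not show which Mafa allele a mouse carried. Mafa itself lay between 362 and 571 TPM in C57 WT and between 93.8 and 152 TPM in C57 Het, and between 440 and 775 TPM in Mixed WT against 95.2 to 199 TPM in Mixed Het. The 8 beta cell markers summed to 370161 to 450204 TPM in C57 WT and 323802 to 379238 TPM in C57 Het, and to 401624 to 479328 TPM in Mixed WT and 250695 to 342701 TPM in Mixed Het, and all 8 were above 1 TPM on average, as were the 6 markers of other islet endocrine cells. The sum of those 6 endocrine markers was 37071 to 77209 TPM in C57 WT and 91893 to 138758 TPM in C57 Het, and 38804 to 67812 TPM in Mixed WT and 114855 to 169353 TPM in Mixed Het. Marker sums of other cells were lower, with 19.5 to 50.2 TPM for the 5 immune and 250 to 649 TPM for the 4 endothelial markers. The 6 acinar markers summed to 186 to 352 TPM in C57 WT and 224 to 1482 TPM in C57 Het. In Mixed WT they summed to 156 to 774 TPM, and in Mixed Het to 544 to 1063 TPM. The 5 mesenchymal markers summed to 56.8 to 345 TPM in Mixed Het and to 30.6 to 86.6 TPM outside it. The part of such cells in the differences below was not tested. Mitochondrial genes took 2.80% to 6.03% of TPM in 19 libraries and more in C57 WT 1 (8.09%), C57 WT 5 (9.76%) and Mixed WT 4 (9.76%). The table is already scaled to a common total per library, so read depth cannot be read from it. Between 14812 and 16133 genes per library were at 1 TPM or more. In bulk islets, fewer cells of a type and less RNA per cell cannot be told apart.

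Most named pseudogenes were minor transcripts beside their parents. Mean TPM over the 22 mice ran from 0.549 to 232, with a median of 2.64, and 22 of the 130 had a mean of at least 10. The highest was Ubb-ps, a copy of the polyubiquitin gene Ubb, at 232 TPM beside 849.65 TPM for Ubb. Ubb-ps kept to 125 to 288 TPM in all 22 mice and passed the test in none of the 5 comparisons. Tmem250-ps, which M21 lists as a long noncoding RNA on chromosome 2, had 60.3 to 91.1 TPM. It rose with S64F by 0.17 ± 0.06 in C57 mice (limma adjusted p = 0.035) and by 0.24 ± 0.06 in Mixed mice (adjusted p = 0.00329). The C57 call was lost in 9 of 32 alternatives (adjusted p from 0.00587 to 0.339), 5 of them without 1 mouse (C57 WT 4 or 5 or C57 Het 1, 2 or 4), and the Mixed call in 2, under the median-of-ratios scaling (adjusted p = 0.139) and quantile normalization (0.0595). Of the 105 with a parent row, 101 had a lower mean than the parent and the median share of the pseudogene in the sum of both was 3.38%. The 4 exceptions were Rps10-ps2 (7.20 TPM beside 1.92 TPM for Rps10), C4bp-ps1 (1.51 beside 0.165), Hmga2-ps1 (1.04 beside 0.0149) and Rnu7-ps1 (1.704, with Rnu7 listed at 0). Rps10 was far under the other ribosomal protein parents, of which the next lowest was Rps15a at 39.2 TPM. Why it was so low was not tested, so Rps10-ps2 cannot be taken as transcribed above its parent.

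**Figure D1:**
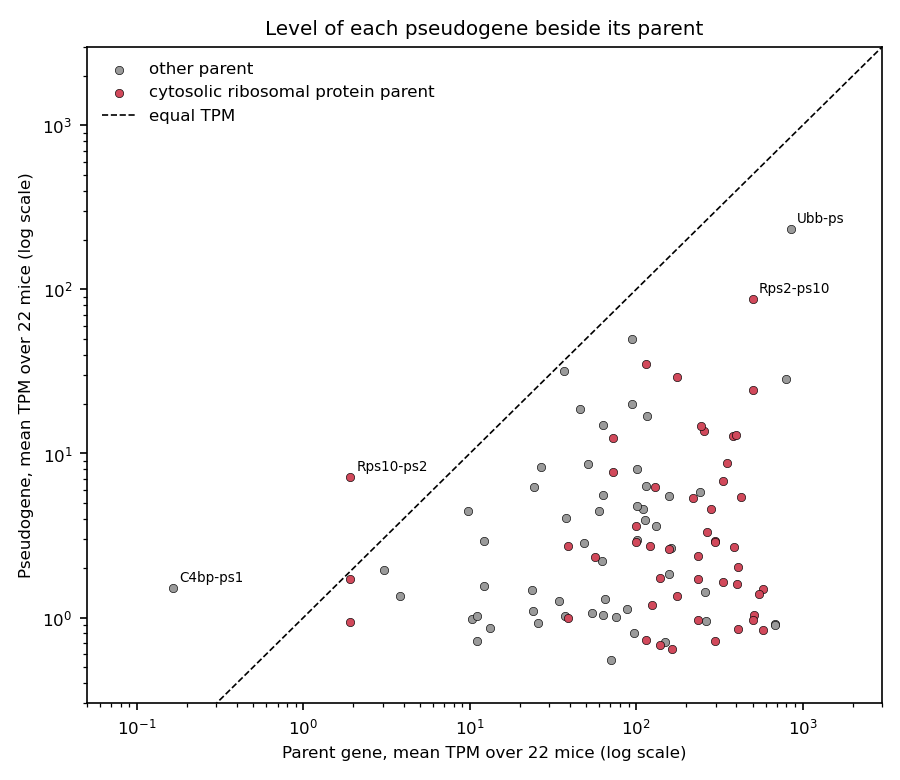
Mean TPM of each named pseudogene (vertical, log scale) against mean TPM of its parent gene (horizontal, log scale) over 22 mice, for pairs with both means inside the axes, with parents that encode cytosolic ribosomal proteins in red. Nearly all points lie under the line of equal TPM, and Ubb-ps at 232 TPM is the highest.

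Named pseudogenes were higher in Mixed than in C57 islets, and the excess came from a limited number of them at very high levels. Summed over the 130, TPM was 755 to 813 in C57 WT and 722 to 803 in C57 Het, against 1192 to 1849 in Mixed WT and 1068 to 1952 in Mixed Het, with no overlap between backgrounds. In wild-type mice, 26 of the 130 rose and 4 fell from C57 to Mixed (20% and 3.08%, limma adjusted p under 0.05), where 6.30% of the 16756 genes tested rose and 4.99% fell. In heterozygous mice 32 rose and 5 fell (24.6% and 3.85%), against 13.3% and 7.13% of all genes tested. In either direction that was 30 named pseudogenes in wild-type mice (11.3% of all genes tested were called) and 37 in heterozygous mice (20.5% of all genes). The share that rose was above that of all genes in both genotypes, and 22 of the 26 and 23 of the 32 rose by 1 or more on the log2(TPM + 1) scale. The median difference of the 130 was 0.10 in wild type and 0.21 in heterozygous mice, where it was 0.01 and 0.02 over all genes tested. Groups did not overlap in 15 of the 130 upward and 3 downward in wild-type mice (2.91% and 3.21% of all genes tested), and in 18 upward and 2 downward in heterozygous mice (6.56% and 3.28%). Because 32 of the 130 reached the level only through Mixed mice and 4 only through C57 mice, the selection favors Mixed. The sums, shares, medians and counts above all lean towards Mixed by the way the rows were chosen. No sum was made over the 81 that reached the level in both backgrounds. The 2 genotypes have no mouse in common, and 22 pseudogenes rose in both, which is 84.6% of the wild-type list and 68.8% of the heterozygous list. Both lists were drawn from the same 130 rows and the same fit. The matching overlap over all genes tested was not counted, so whether 22 is unusual is not known. Of the 82 parents tested, 5 rose and 13 fell in wild-type mice and 19 rose and 7 fell in heterozygous mice.

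To describe the size of the excess, named pseudogenes were counted in which some Mixed mouse had at least 1 TPM and at least 4 times the highest of the 11 C57 values, a threshold chosen after the values were seen. There were 23 of 130 (17.7%), against 252 of the 16756 genes tested (1.504%). In the other direction 1 named pseudogene, H1f11-ps, had a C57 mouse at 4 times the highest Mixed value, against 18 of all genes tested (0.107%). Every Mixed mouse held between 11 and 22 of the 23. Their source genes lay on 11 chromosomes, 5 of them encode ribosomal proteins, and 20 of the 23 lie on another chromosome than the source gene. Of the 23, 13 stayed under 1 TPM in every C57 mouse and 17 reached the level asked for only through Mixed mice. Their identity to the source gene was 95.1% to 99.8% (median 99.08%), while the other 107 had a median of 99.23% over the 99 that could be aligned, with 19 at 100% and none of the 23 among these.

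**Figure D2:**
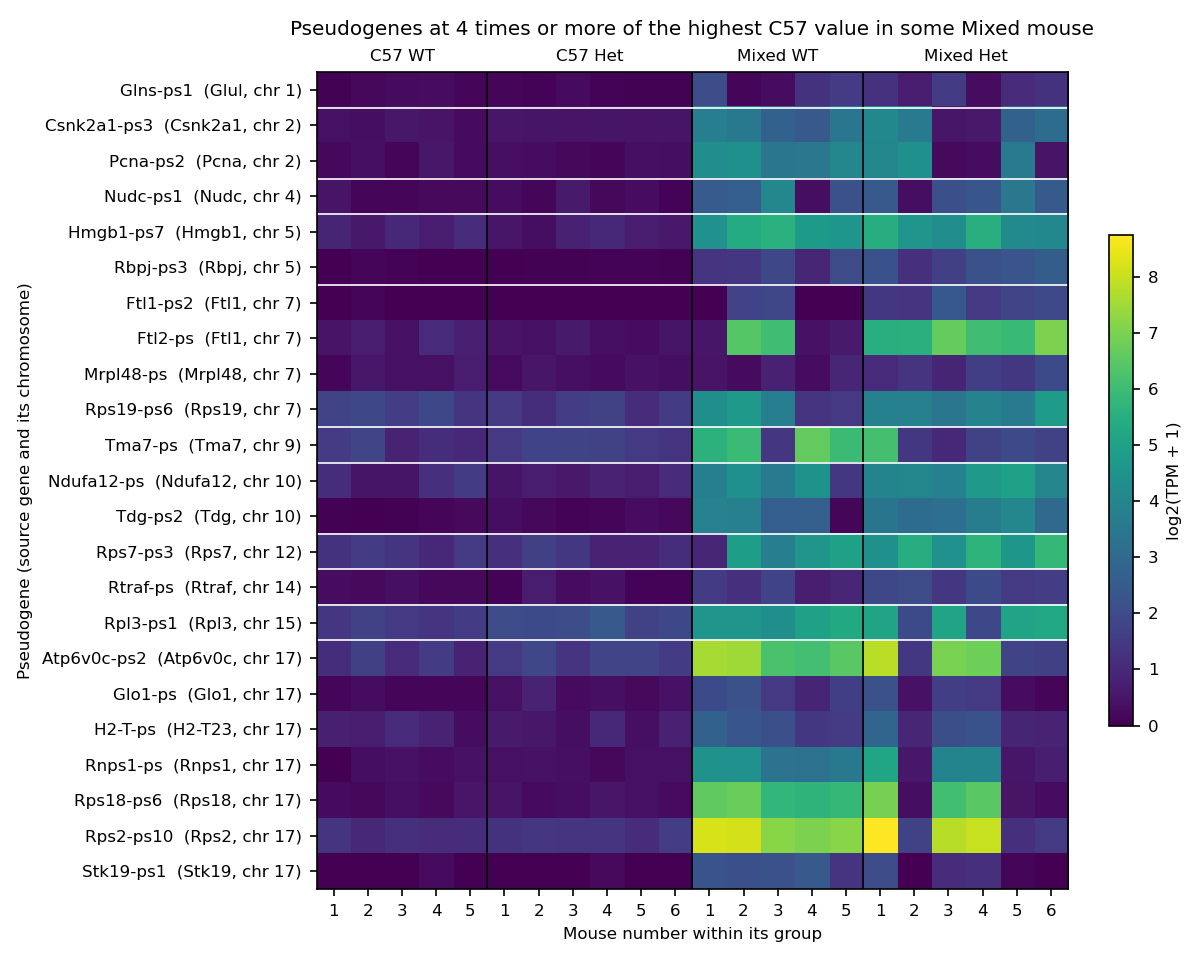
Level, as log2(TPM + 1), of the 23 named pseudogenes with a Mixed mouse at 4 times or more of the highest C57 value, 1 row each, ordered by the chromosome of the source gene, in 22 mice (columns, by group). No C57 value exceeds 4.47 TPM (Rpl3-ps1), while each Mixed mouse shows 11 to 22 of the rows above the threshold, and 5 of the 7 rows with a source gene on chromosome 17 are above it in the same 8 Mixed mice.

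In wild-type mice the largest differences belonged to 3 pseudogenes whose source genes are on chromosome 17. Rps2-ps10, a copy of the small-subunit ribosomal protein gene Rps2, was at 1.03 to 1.51 TPM in the 5 C57 WT mice and 1.16 to 2.02 TPM in the 6 C57 Het mice. In Mixed WT mice 1 to 5 it was at 292, 290, 144, 127 and 144 TPM. In Mixed Het mice 1 to 6 it was at 426, 2.28, 219, 253, 1.32 and 1.83 TPM. All 5 Mixed WT mice were thus far above C57, while Mixed Het mice 2, 5 and 6 lay near the C57 range and 1, 3 and 4 did not. The difference was 6.39 ± 1.13 (SE) on the log2(TPM + 1) scale in wild type (adjusted p = 0.00076) and 3.48 ± 1.03 in heterozygous mice (adjusted p = 0.0196). Over 32 alternatives the heterozygous call had adjusted p from 0.00587 to 0.0624, and it was lost without Mixed Het 1 (adjusted p = 0.0525) or Mixed Het 4 (adjusted p = 0.05).

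Rps18-ps6, a copy of another small-subunit gene, had 0.150 to 0.438 TPM in the C57 mice. Mixed WT mice 1 to 5 had 96.9, 106, 53.5, 50.0 and 55.3 TPM, and Mixed Het mice 1 to 6 had 123, 0.261, 66.4, 90.2, 0.373 and 0.234 TPM. The same 3 heterozygous mice were again at the C57 level. The log2 difference was 5.81 ± 1.04 in wild type (adjusted p = 0.000823) and 3.07 ± 0.95 in heterozygous mice (adjusted p = 0.0244), the latter lost without Mixed Het 1 (adjusted p = 0.0645), 3 (0.0589) or 4 (0.0612), within a range of 0.00774 to 0.0717. Atp6v0c-ps2, a copy of the gene for a membrane subunit of the vacuolar proton pump, had 0.846 to 2.60 TPM in C57. Mixed WT mice had 192, 181, 74.0, 68.5 and 90.3 TPM, and Mixed Het mice had 225, 1.66, 126, 112, 2.43 and 2.16 TPM, once more with mice 2, 5 and 6 in the C57 range. Its log2 difference was 5.53 ± 0.96 in wild type (adjusted p = 0.000656) and 2.76 ± 0.88 in heterozygous mice (adjusted p = 0.0286). The heterozygous call was lost without C57 Het 1 (adjusted p = 0.0508) or Mixed Het 1 (0.0751), 3 (0.0698) or 4 (0.0704), within 0.00871 to 0.0757 over the alternatives.

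Rnps1-ps, a copy of a splicing activator gene, and Stk19-ps1 were high in the same 8 mice, which was noticed after the values were seen. Rnps1-ps was at 8.92 to 21.4 TPM in Mixed WT and at 34.1, 14.5 and 14.2 TPM in Mixed Het mice 1, 3 and 4, and at most 0.674 TPM in the other 14 mice. Stk19-ps1, which lies on chromosome 17 itself, was at 1.54 to 4.42 TPM in Mixed WT and at 3.09, 1.15 and 1.26 TPM in those 3 heterozygous mice, and at most 0.185 TPM elsewhere. Glo1-ps and H2-T-ps, whose source genes Glo1 and H2-T23 (best coding match) are also on chromosome 17, were highest in the same mice at lower levels, up to 3.53 and 6.16 TPM.

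The source genes of these pseudogenes were low in the mice where the pseudogene was high, with Stk19 and Glo1 as exceptions. Rps2 had 462 to 580 TPM in C57 WT and 585 to 668 TPM in C57 Het. In Mixed WT mice 1 to 5 it had 153, 161, 320, 290 and 321 TPM, and in Mixed Het mice 1 to 6 it had 177, 789, 432, 472, 717 and 721 TPM. The lowest Rps2 values were in the 3 mice with the highest Rps2-ps10 values (Mixed WT 1, Mixed WT 2 and Mixed Het 1), and the highest were in the 3 mice with Rps2-ps10 near the C57 level. Rps2-ps10 made up 30.5% to 65.6% of the sum of both in Mixed WT, up to 70.6% in Mixed Het and at most 0.326% in C57. The sum itself was 464 to 581 TPM in C57 WT and 417 to 465 TPM in Mixed WT, and 586 to 670 TPM in C57 Het and 603 to 791 TPM in Mixed Het. Taken alone, Rps2 fell by 1.19 ± 0.29 on the log2 scale from C57 WT to Mixed WT (limma adjusted p = 0.0103), and in heterozygous mice the difference was -0.34 ± 0.27 (adjusted p = 0.41).

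Rps18 was likewise lowest in Mixed WT 1, Mixed WT 2 and Mixed Het 1 and highest in Mixed Het 2, 5 and 6, from 158 to 216 TPM over C57 to 89.6 to 132 TPM in Mixed WT and, in Mixed Het mice 1 to 6, 99.7, 256, 151, 201, 258 and 242 TPM. The sum of Rps18 and Rps18-ps6 was 158 to 198 TPM in C57 WT and 171 to 199 TPM in Mixed WT, and 187 to 216 TPM in C57 Het and 217 to 291 TPM in Mixed Het. Rps18 alone fell by 0.72 ± 0.19 from C57 WT to Mixed WT (adjusted p = 0.0152). For Atp6v0c the gain in the pseudogene was larger than the loss in the source gene: the sum was 77.5 to 120 TPM in C57 WT (119.7 at the highest) and 143 to 249 TPM in Mixed WT, although Atp6v0c itself fell by 0.58 ± 0.15 (adjusted p = 0.013). H2-T23, a nonclassical class I histocompatibility gene, was at 3.52, 3.73 and 4.37 TPM in Mixed WT 1, Mixed WT 2 and Mixed Het 1 and at 46.1 to 58.0 TPM in Mixed Het 2, 5 and 6, with 25.6 to 40.5 TPM in C57. Stk19 ran the other way, at 34.6 to 77.4 TPM in Mixed WT and 26.9 to 28.1 TPM in Mixed Het 2, 5 and 6, and Glo1 was at 7.22 to 8.94 TPM in Mixed WT and 11.7 to 12.6 TPM in Mixed Het, a rise with S64F of 0.52 ± 0.07 (adjusted p = 8.84e-06). Over the 26 named pseudogenes that rose from C57 to Mixed in wild-type mice, the source gene fell in 9, rose in 3 and passed the test in neither direction in the other 14. Source genes were counted here once per pseudogene. Of all genes tested, 4.99% fell and 6.30% rose.

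**Figure D3:**
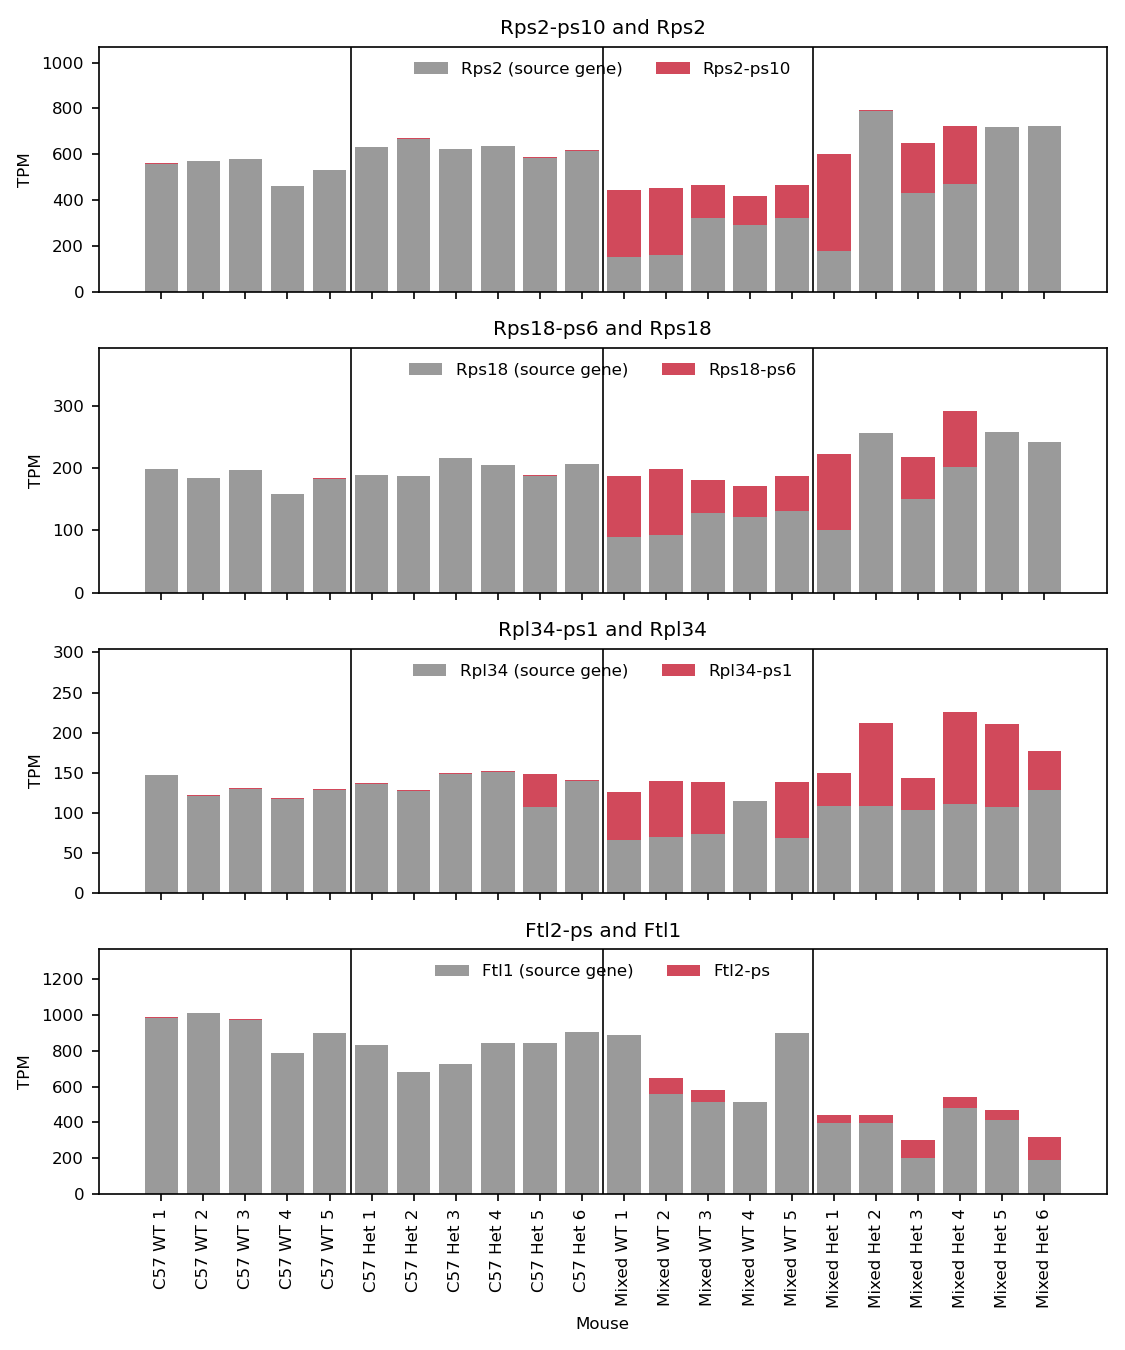
TPM of a source gene (grey) with the pseudogene stacked on it (red) in each of 22 mice, for 4 pairs. Grey falls where red appears for Rps2, Rps18 and Rpl34, mice Mixed Het 2, 5 and 6 lack red for Rps2 and Rps18, C57 Het 5 has red for Rpl34, and for Ftl1 the full bar is lower in Mixed Het (304 to 544 TPM) than in C57 Het (683 to 903 TPM).

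Pseudogenes that were high in exactly the same Mixed mice had source genes on the same chromosome, while the pseudogenes themselves mostly did not share one. For each of the 253 pairs among the 23, the Mixed mice were counted in which both were on the same side of the threshold of 4 times the highest C57 value. Both were on the same side in all 11 Mixed mice in 12 pairs, and all 12 had their source genes on 1 chromosome. That was 12 of the 30 pairs with source genes on the same chromosome (40%) and 0 of the 223 with source genes on different chromosomes. Among the 8 pairs whose pseudogenes lie on the same chromosome it was 1 (12.5%), Atp6v0c-ps2 and Rnps1-ps, whose source genes also share one. The median number of mice on the same side was 8.5 with a shared source chromosome and 6 without. Of the 12 pairs, 10 were those among Rps2-ps10, Rps18-ps6, Atp6v0c-ps2, Rnps1-ps and Stk19-ps1, which lie on 4 chromosomes. The other 2 were Ndufa12-ps with Tdg-ps2 (source genes on chromosome 10) and Ftl1-ps2 with Ftl2-ps, which share the source gene Ftl1. Ndufa12-ps and Tdg-ps2 were each above the threshold in 10 Mixed mice, so their concordance rests on 1 low mouse, Mixed WT 5. Hmgb1-ps7, with its source gene on chromosome 5, was above it in all 11 and differed from them in that mouse only. Pairs are not independent of each other, since 23 pseudogenes and 11 mice enter them many times, and no test was made. The breeding of the Mixed mice is not given in the sources used here, and whether litter or ancestry moved with these patterns was not tested.

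**Figure D4:**
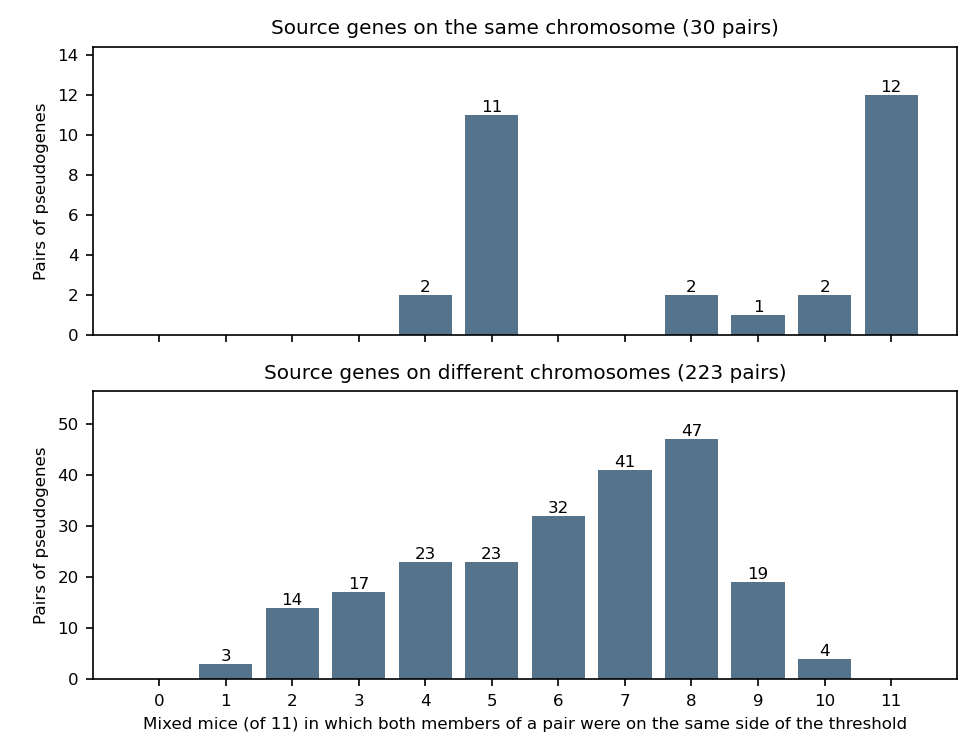
Number of pairs among the 23 named pseudogenes (vertical) by the number of Mixed mice, of 11, in which both were on the same side of the threshold (horizontal), with source genes on the same chromosome (top, 30 pairs) and on different chromosomes (bottom, 223 pairs). All 12 pairs with complete concordance are in the upper panel, where the 13 pairs at 4 or 5 mice each hold Glo1-ps, H2-T-ps or Mrpl48-ps.

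Other named pseudogenes had patterns of their own across the Mixed mice. Hmgb1-ps7, a copy of the gene for an abundant chromatin protein, was high in every one of the 11, at 20.3, 40.7, 47.2, 26.1 and 23.3 TPM in Mixed WT and 42.6, 22.5, 18.4, 44.4, 16.8 and 16.1 TPM in Mixed Het, against 0.267 to 1.14 TPM in C57. The backgrounds were far apart in both genotypes, by 4.09 ± 0.26 in wild type (adjusted p = 1.96e-09) and 4.01 ± 0.24 in heterozygous mice (adjusted p = 4.72e-10). Hmgb1 itself was at 55.5 to 67.2 TPM in Mixed and 55.9 to 76.4 TPM in C57, which overlap. It fell from C57 to Mixed by 0.19 ± 0.07 in heterozygous mice (adjusted p = 0.0425) and differed by -0.12 ± 0.07 in wild type (adjusted p = 0.3).

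Ftl2-ps and Ftl1-ps2, copies of the ferritin light chain gene Ftl1, which encodes a subunit of the iron storage protein, were high in Mixed WT 2 and 3 and in all 6 Mixed Het mice. Ftl2-ps had 85.0 and 66.2 TPM in those wild-type mice, 0.345 to 0.559 TPM in the other 3, 44.1 to 128 TPM in Mixed Het and 0.230 to 1.12 TPM in C57. Its log2 difference between backgrounds was 5.67 ± 0.80 in heterozygous mice (adjusted p = 5.16e-05) and 2.14 ± 0.88 in wild type, where it missed the threshold (adjusted p = 0.121). Ftl1 had 191 to 478 TPM in Mixed Het against 683 to 903 TPM in C57 Het, a fall of 1.29 ± 0.20 (adjusted p = 0.00013). In this pair the source gene lost more than the pseudogene gained.

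Rpl34-ps1, a copy of a large-subunit ribosomal protein gene, was high in 10 of 11 Mixed mice. It had 60.6, 69.6, 64.6, 0.538 and 69.8 TPM in Mixed WT 1 to 5 and 40.8, 103, 39.2, 114, 104 and 48.8 TPM in Mixed Het 1 to 6. In C57 it had 0.866 to 1.89 TPM in 10 mice and 40.6 TPM in C57 Het 5, so that 1 C57 mouse stood among the Mixed ones. Rpl34 was low in that mouse too, at 107 TPM, where the other C57 Het mice had 127 to 151 TPM, and high in Mixed WT 4 at 115 TPM, where the other Mixed WT mice had 66.2 to 74.2 TPM. The sum of both stayed within 115 to 152 TPM in the 16 mice of the C57 and Mixed WT groups and was 143 to 226 TPM in Mixed Het. H2af-ps2, closest to a replication-dependent histone gene (Hist2h2aa2 in M21, H2ac19 in the table), stood out in the same C57 mouse: 26.1 TPM in C57 Het 5, 0.118 to 2.23 TPM in the other 10 C57 mice, 31.4 to 69.7 TPM in Mixed WT and 28.9 to 60.1 TPM in Mixed Het except mouse 6, where it was at 0. The source genes of both are on chromosome 3. Both passed the test in both genotypes with C57 Het 5 in, by 3.84 ± 0.88 and 4.26 ± 0.80 for Rpl34-ps1 and by 4.78 ± 0.91 and 3.51 ± 0.83 for H2af-ps2 in wild-type and heterozygous mice (adjusted p from 0.000738 to 0.00629).

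Rps7-ps3 and Ndufa12-ps, copies of a ribosomal protein gene and of a gene for a subunit of respiratory complex I, were at C57 levels in 1 Mixed mouse each. Rps7-ps3 was at no more than 2.12 TPM in C57, at 0.915 TPM in Mixed WT 1 and at 12.3 to 55.1 TPM in the other 10 Mixed mice. Ndufa12-ps had 0.412 to 1.84 TPM in C57, 1.65 TPM in Mixed WT 5 and 10.8 to 30.7 TPM in the other 10. Tma7-ps was high in Mixed WT 1, 2, 4 and 5 (48.5 to 99.6 TPM) and in Mixed Het 1 (71.1 TPM), and at 0.849 to 2.79 TPM in the other 17 mice. It rose by 3.83 ± 0.83 in wild-type mice (adjusted p = 0.0042), which was lost when the 3 libraries with a mitochondrial share above 7% were left out (adjusted p = 0.0645, the highest over the alternatives, the lowest being 9.03e-05). Its heterozygous difference was 0.73 ± 0.76 (adjusted p = 0.544). Pcna-ps2, a copy of the gene for the sliding clamp of DNA replication, was at 9.76 to 19.8 TPM in Mixed WT, at 15.0, 19.7 and 11.5 TPM in Mixed Het 1, 2 and 5, and at no more than 0.489 TPM in the remaining 14 mice.

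Of the 130, 4 were lower in Mixed mice in wild type and 5 in heterozygous mice (3.08% and 3.85%). Of all genes tested, 4.99% and 7.13% fell. The choice of rows worked against such falls, with 32 kept only through Mixed mice and 4 only through C57 mice. Bambi-ps1, on chromosome 2, is a copy of the gene for a decoy receptor of the TGF-beta family and had an identity of only 88.6% to Bambi. It had 38.2, 65.3, 52.2, 51.8 and 53.7 TPM in C57 WT and 6.04, 4.57, 25.0, 24.4 and 5.74 TPM in Mixed WT, with no overlap, and fell by 2.23 ± 0.39 (adjusted p = 0.000716). In C57 Het it had 34.2 to 37.0 TPM and in Mixed Het 11.9 to 50.5 TPM, which overlap, and the difference was -0.54 ± 0.36 (adjusted p = 0.312). In Mixed mice it was higher with S64F by 1.16 ± 0.38 (adjusted p = 0.0156), a call lost without Mixed WT 2 (adjusted p between 0.001 and 0.0705 over the alternatives), and Bambi moved in the same direction by 0.84 ± 0.13 there. H1f11-ps, a histone H1 copy on chromosome 19, fell from C57 to Mixed by 0.61 ± 0.18 in wild type (adjusted p = 0.0262) and by 1.24 ± 0.16 in heterozygous mice (adjusted p = 2.04e-05). The wild-type call was lost in 9 of 31 alternatives, without C57 WT 1 or 3 or Mixed WT 1, 2 or 4 among them (adjusted p from 0.00897 to 0.133). Rps16-ps2 (-0.68 ± 0.15) and Rpl14-ps1 (-0.49 ± 0.12) were the others that fell in wild-type mice. The Rps16-ps2 call was lost in 1 of 32 alternatives, the fit of the compared groups alone (limma adjusted p = 0.0609). That of Rpl14-ps1 was lost in 3 of 32, among them without the 3 libraries with a mitochondrial share above 7% (adjusted p from 0.00169 to 0.221 over the alternatives). In heterozygous mice Ftl1-ps1 (-0.66 ± 0.11), Ube2n-ps1 (-0.62 ± 0.20), Znf41-ps (-0.60 ± 0.21) and Rps10-ps4 (-0.42 ± 0.14) fell too, the last 3 at 3 TPM or less in nearly every mouse and lost in 9 to 12 of 31 alternatives each.

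Pseudogenes of ribosomal protein genes were counted by themselves, with no test against the rest. Of the 49, 8 rose and 2 fell from C57 to Mixed in wild-type mice and 9 rose and 1 fell in heterozygous mice, with medians of 0.01 and 0.21. With S64F, 2 rose and 7 fell in C57 and 10 rose and 6 fell in Mixed mice. Of the 9 with a chromatin or nuclear parent, 3 rose and 1 fell in wild type, and 4 rose and 1 fell in heterozygous mice. Of all genes tested, 6.30% rose and 4.99% fell from C57 to Mixed in wild type, and 13.3% and 7.13% in heterozygous mice. With S64F, 26.4% of all genes rose and 11.6% fell in C57, and 30.7% and 13.5% in Mixed mice. These counts are small and no class was set apart from genes at large by a test.

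Genotype moved fewer named pseudogenes than genes at large in C57 mice. With S64F, 9 of the 130 rose and 13 fell (6.92% and 10%, limma adjusted p under 0.05), where 26.4% of all genes tested rose and 11.6% fell. In Mixed mice 25 rose and 17 fell (19.2% and 13.1%), against 30.7% and 13.5% of all genes tested. In either direction 22 were called in C57 (38.0% of all genes tested) and 42 in Mixed mice (44.1%). The share that rose was below that of all genes in both backgrounds, and the share that fell was close to it. Groups did not overlap in 4 upward and 4 downward in C57 (15.9% and 5.04% of all genes) and in 5 upward and 5 downward in Mixed mice (17.9% and 5.76%). The median over all genes tested was 0.08 in C57 and 0.10 in Mixed mice. When libraries were scaled by the median of ratios instead, the counts were 4 up and 15 down in C57 and 15 up and 17 down in Mixed mice. Under that scaling 39.3% and 43.7% of all genes tested were called. The C57 count ran from 14 to 27 when 1 library was left out. It was 14 without C57 WT 1 (33.4% of all genes) and 27 without C57 WT 2 (40.7%). The 2 backgrounds have no mouse in common: 6 rose in both (66.7% of the C57 list, 24% of the Mixed list) and 4 fell in both (30.8% and 23.5%). Here too the overlap over all genes tested was not counted, so whether these numbers are unusual is not known. The parents moved otherwise: in C57 32 of 82 rose and 0 fell (2 fell at an unadjusted limma p under 0.05), and in Mixed mice 59 rose and 2 fell.

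Among the largest falls with S64F in C57 mice were those of Rpl31-ps6, Rpl30-ps9, Rpl23a-ps2 and Fth-ps2, 3 copies of ribosomal protein genes and 1 of the ferritin heavy chain gene. Rpl31-ps6 had 3.92, 2.66, 1.53, 5.81 and 11.2 TPM in C57 WT and 0.451, 0.457, 1.19, 0.848, 0.672 and 0.704 TPM in C57 Het, with no overlap, and fell by 1.61 ± 0.34 (adjusted p = 0.000917). Fth-ps2 had 12.6, 4.39, 6.18, 6.48 and 8.77 TPM in C57 WT and 2.79 to 3.65 TPM in C57 Het, without overlap, and fell by 1.01 ± 0.23 (adjusted p = 0.00157). In Mixed mice Fth-ps2 fell by 0.88 ± 0.23 (adjusted p = 0.0034), while Rpl31-ps6 was lower by an amount that missed the threshold (-0.78 ± 0.34, adjusted p = 0.0653). The parents did not fall with them, apart from Fth1: Rpl31 differed by 0.13 in C57 without passing the test, Rpl23a rose by 0.28, and Fth1 fell by 0.35.

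These 4 were highest in C57 mice in the libraries with the largest mitochondrial share. C57 WT 5, at 9.76% mitochondrial TPM, held the highest C57 value of Rpl31-ps6 and Rpl23a-ps2 (4.05 TPM), and C57 WT 1, at 8.09%, that of Rpl30-ps9 (5.48 TPM) and Fth-ps2. In Mixed WT 4, at 9.76%, Rpl31-ps6 (9.32 TPM) and Fth-ps2 (13.9 TPM) had their highest Mixed values. Without these 3 libraries, 5 named pseudogenes rose and 4 fell with S64F in C57, and the share of all genes called there went from 38.0% to 23.0%. Rpl31-ps6 (-1.23, adjusted p = 0.00696) and Fth-ps2 (-0.69, adjusted p = 0.0183) were still called. Rpl30-ps9, which fell by 1.08 ± 0.28 with all libraries, was not called without them (-0.57, adjusted p = 0.11), nor was Rpl23a-ps2, which fell by 1.06 ± 0.30 (-0.54, adjusted p = 0.189). The part of RNA quality in these differences was not tested.

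**Figure D5:**
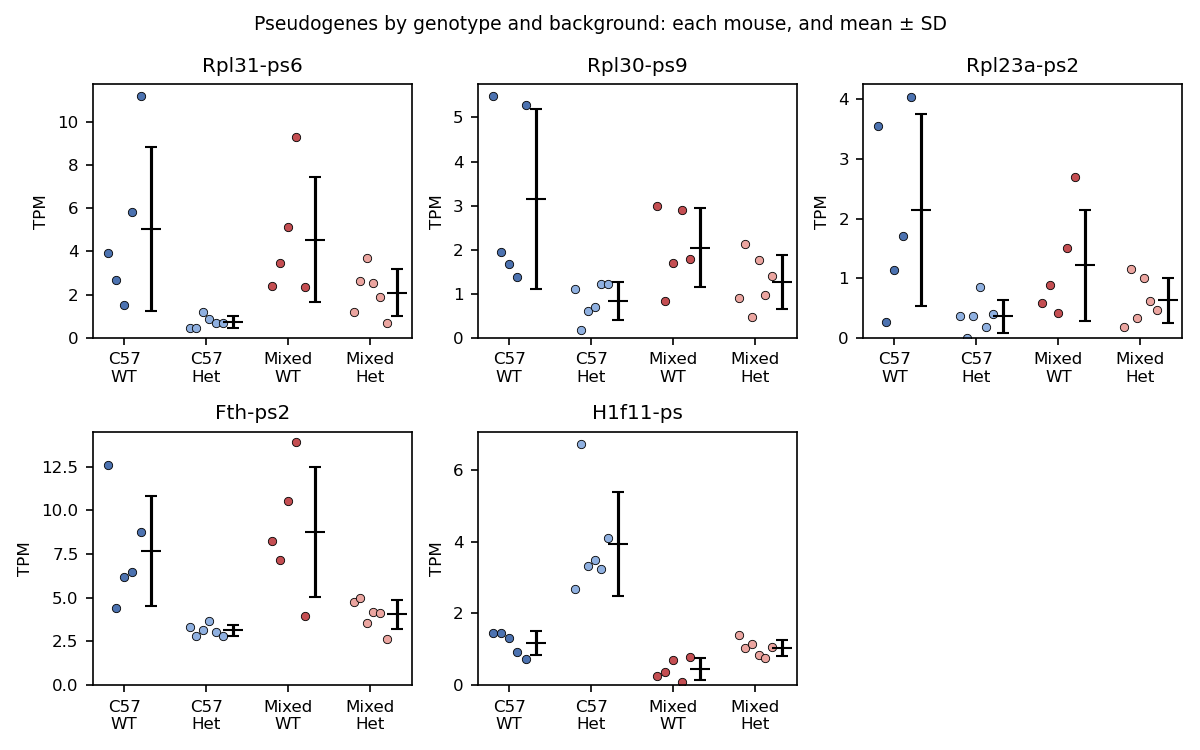
TPM of 5 named pseudogenes in every mouse (points, by group) with the group mean ± SD (bars), each axis from 0. The first 4 were lower in C57 Het than in C57 WT on average, with the highest C57 points in the 2 wild-type libraries of large mitochondrial share, and H1f11-ps was higher in C57 Het, at 2.69 to 6.75 TPM.

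Of the 13 that fell with S64F in C57 mice, 7 lie in an intron of another gene on the same strand, out of 27 such named pseudogenes among the 130, of which 3 rose. Among the 72 that overlap no other gene, 5 fell and 3 rose, and among the 16 in an intron on the opposite strand 2 were called, both upward. Of all genes tested, 26.4% rose and 11.6% fell in this comparison. The counts by place are small and were not tested against each other. Values of 3 host genes are given here as examples only, and those of the other hosts are not given. Rabep1, which holds Rpl23a-ps2, rose by 0.42 (adjusted p = 0.0051), and Braf, which holds Fth-ps2, by 0.39 (adjusted p = 0.0168). Zbtb20, which holds Ndufs5-ps, had a lower mean with S64F by an amount that missed the threshold (-0.22, adjusted p = 0.179). Reads from unspliced transcripts of a host and from the pseudogene inside it cannot be told apart in this table.

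The named pseudogenes that rose with S64F in C57 mice were led by H1f11-ps, at 0.738 to 1.46 TPM in C57 WT and 2.69, 6.75, 3.32, 3.49, 3.24 and 4.11 TPM in C57 Het. Its groups did not overlap, and it rose by 1.15 ± 0.17 (adjusted p = 2.74e-05). In Mixed mice it rose by 0.52 ± 0.17 (adjusted p = 0.0148), a call lost without Mixed WT 4 and without the 3 libraries of large mitochondrial share (adjusted p up to 0.0562, and down to 0.00367 elsewhere). Ptges3-ps, whose transcript is 100% identical to its parent over the aligned length, had 8.71 to 18.1 TPM in C57 WT and 20.0 to 24.0 TPM in C57 Het, and rose by 0.64 ± 0.14 (adjusted p = 0.00159). Ptges3, a cochaperone gene, rose with it by 0.43. Mpc1-ps (0.51 ± 0.16), Rpl17-ps10 (0.50 ± 0.13) and Morf4l1-ps1 (0.47 ± 0.16) rose as well, and all 3 calls were lost without the 3 libraries of large mitochondrial share. Mpc1-ps was also lost without C57 WT 4 or C57 Het 5, and Morf4l1-ps1 without C57 WT 1, 4 or 5 or C57 Het 5 (adjusted p from 0.00467 to 0.144 and from 0.00525 to 0.219 over the alternatives). Mpc1-ps and Morf4l1-ps1 were lost under the median-of-ratios scaling too. Under it the median over all genes tested in this comparison was 0.0052, where it was 0.083 in the main fit. The summed markers of other islet endocrine cells were also higher with S64F and those of beta cells lower, as given above, and their part in these differences was not tested.

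In Mixed mice most of the largest genotype differences were in pseudogenes that were present at high level in some Mixed mice and not in others. Bambi-ps1 and Mrpl48-ps, also among the 5 largest rises, were not of this kind. Bambi-ps1 was at 4.57 TPM or more in every Mixed mouse, and Mrpl48-ps at no more than 2.89 TPM. Tma7-ps fell by 2.79 ± 0.79 with S64F (adjusted p = 0.00696), Rps2-ps10 by 2.73 ± 1.08 (adjusted p = 0.0454), Rps18-ps6 by 2.68 ± 0.99 (adjusted p = 0.0322), Atp6v0c-ps2 by 2.38 ± 0.92 (adjusted p = 0.0406) and Pcna-ps2 by 1.76 ± 0.61 (adjusted p = 0.0221). As their values show, 3 of 6 heterozygous mice were at the C57 level for each of the 3 with a source gene on chromosome 17, and the groups overlapped. The Rps2-ps10 call was lost in 22 of 32 alternatives, 18 of them with a single library left out (adjusted p from 0.00374 to 0.14), that of Rps18-ps6 in 9 (0.00272 to 0.115) and that of Atp6v0c-ps2 in 12 (0.00264 to 0.129). The Pcna-ps2 call was lost in 6 (0.00347 to 0.091), among them without Mixed Het 3, 4 or 6. Ftl2-ps rose by 3.30 ± 0.84 with S64F (adjusted p = 0.00321) and Ftl1-ps2 by 1.01 ± 0.29 (adjusted p = 0.00823), since both were high in 2 of 5 wild-type and 6 of 6 heterozygous mice. Rps7-ps3, at the C57 level in Mixed WT 1 only, rose by 1.24 ± 0.49 (adjusted p = 0.045), which was lost in 19 of 32 alternatives (0.0174 to 0.141). In C57 mice these 8, Bambi-ps1 and Mrpl48-ps aside, were near 0 or a few TPM in both genotypes and none of the 8 passed the genotype test. For them, genotype and whatever set the level from one Mixed mouse to the next cannot be told apart.

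A difference between backgrounds in the genotype effect was called for 3 of the 130 (2.31%), with 2 positive and 1 negative, where 7.36% of all genes tested were called, 4.62% with a positive and 2.74% with a negative sign. Mrpl48-ps was at 0.0804 to 0.619 TPM in C57 of either genotype, at 0.196 to 0.902 TPM in Mixed WT and at 0.876 to 2.89 TPM in Mixed Het. Its change with S64F was larger in Mixed than in C57 mice by 0.90 (adjusted p = 0.0254). Rpl14-ps1 differed by 0.62 (adjusted p = 0.0264), with 3.13 to 5.54 TPM in Mixed WT, 5.36 to 7.01 TPM in Mixed Het and 4.53 to 7.38 TPM in C57, and this call was lost without C57 WT 5 (adjusted p = 0.0504, in a range of 0.0085 to 0.173 over the alternatives). Stk19-ps1 differed by -1.32 and was lost in 20 of 30 alternatives (adjusted p from 0.00399 to 0.185), 16 of them with 1 library left out. None of the 3 passed without the 3 libraries of large mitochondrial share.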

How the data were processed

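Islet RNA of 22 male mice, 1 mouse per library, was sequenced from poly(A) libraries, per the labels' protocols. The authors deposited 1 table of TPM values, with genes in rows and each column summing to 1000000, per the file headers and the values. The submitters' processing notes name STAR 2.7.10b, MultiQC 1.7 and the build mm39. The counting tool, the annotation and the treatment of reads that fit several places are not given in the sources used here, and neither is read depth. No value column was left unused.

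Log2(TPM + 1) values were tested by limma (version 3.58.1, under R 4.3.3) with moderated variances that follow mean level. The model had 4 group means over all 22 mice and took in 16756 genes with at least 1 TPM in at least 5 mice. P-values were adjusted by Benjamini-Hochberg over all 16756 genes, and "rose" or "fell" means an adjusted p under 0.05. Differences on this scale understate changes of low genes. Errors are standard errors. The fit was tested on simulated data before use. Transcripts, chromosomes and overlaps came from GENCODE M21, an annotation of another build than the table's, so no coordinates are given, and alignments from blastn 2.17.0 (e-value at most 1e-10). The pseudogenes, gene lists and tests were chosen with earlier results of these data known. Pseudogenes named were the 6 largest called differences each way between backgrounds, the 5 largest each way between genotypes, the 3 largest each way for the interaction, the 6 highest in mean TPM, the 4 with the largest spread within groups, and up to 3 just inside and 3 just outside the level. A pseudogene that falls under this rule is not reported here, and sequences are shown for 4 of the pairs aligned. Others were named after their values were seen. Alternatives were another pseudocount, other filters, scalings and weights, a fit of the compared groups alone, a stricter threshold, and each mouse left out in turn. Added after seeing the data were folds of 2 and 10 and leaving out 3 libraries with over 7% mitochondrial TPM.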

Additional observations from a re-analysis of the deposited data

Results flagged for a closer look

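Among 144 sets of 1 named pseudogene in 1 group, 12 single mice lay far from the rest of their group by Dixon's criterion, which chance alone reaches in about 1 of 20 such sets. In C57 Het 5, H2af-ps2 was at 26.1 TPM with 0.51 TPM next, and Rpl34-ps1 at 40.6 TPM with 1.46 TPM next. In Mixed WT 4, Rpl34-ps1 was at 0.538 TPM with 60.6 TPM next. Tma7-ps was at 71.1 TPM in Mixed Het 1 with 2.79 TPM next, and H1f11-ps at 6.75 TPM in C57 Het 2 with 4.11 TPM next. The other 7 were in pseudogenes of low level. Znf41-ps at 1.203 TPM in C57 WT 5 was the lowest of its group, with 2.145 TPM next. The rest were each the highest of their group: Chchd2-ps at 1.67 TPM in Mixed Het 2, Cox5b-ps at 1.44 TPM in Mixed WT 1, Ftl1-ps1 at 1.88 TPM in C57 Het 1, Ftl1-ps2 at 0.0764 TPM in C57 WT 2, and Stk19-ps1 in mouse 4 of each C57 group (0.185 TPM without and 0.155 TPM with S64F). The genotype effect differed between backgrounds for Mrpl48-ps (0.90), Rpl14-ps1 (0.62) and Stk19-ps1 (-1.32), by the interaction term of limma.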

How the results depend on the processing

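The main counts called were 30 (background, wild type), 37 (background, heterozygous), 22 (genotype, C57), 42 (genotype, Mixed) and 3 (interaction). With a mean of at least 5 TPM, which left 40 named pseudogenes, the first 4 were 15, 15, 8 and 20 (11.7%, 20.9%, 46.1% and 48.7% of all genes). With no filter on low values the C57 genotype count was 14 (16.4% of all genes called) and the interaction count 1 (1.91%). At an adjusted p under 0.01 the genotype counts were 11 in C57 (23.9% of all genes) and 23 in Mixed mice (30.4%), and the interaction count was 0 (1.46%). The interaction count was 5 after quantile normalization (10.9% of all genes) and 13 with sample weights (15.7%). Without the 3 libraries of large mitochondrial share, the C57 genotype count was 9 (23.0% of all genes, 38.0% with every library) and the interaction count 0 (2.50%, against 7.36%). Leaving out 1 mouse at a time gave 28 to 34, 31 to 40, 14 to 27, 33 to 46 and 1 to 6 in the same order, and the cause was not tested. Of all genes, 8.43% and 14.2% were called in the fits with the lowest and highest of these counts for the first comparison. For the others in turn it was 18.4% and 23.1%, 33.4% and 40.7%, 40.9% and 47.1%, and 5.08% and 7.82%. Folds of 2 and 10 in place of 4 gave 33 and 17 named pseudogenes in place of 23. Of the 65 results for a named pseudogene in 1 comparison, none changed direction in 2053 alternative values, 35 stayed called in every alternative run for them, and 30 lost the call in at least 1. No paired analysis was possible because the labels give no replicate numbers shared between groups. Depth is unknown, so no counting error can be given, and for pairs near 100% identity the split between pseudogene and source gene depends on unstated read assignment.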
